A study of Mus musculus with 9 samples.

Results

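The genes described here were 41 interferon-stimulated genes of the mouse, named one by one by symbol, in a choice made with earlier results of these data known. They were read on 9 one-color microarrays of mouse lung, 4 from control mice and 5 from mice with an irradiated left lung. Through a RefSeq gene table, 39 of the 41 were found among the 19693 genes with a named probe, and Mx1 and Mx2 were not found through it. All 39 were well above background on all 9 arrays. They were ordered by role into 4 sensors of RNA and other nucleic acids, 4 transcription factors, 14 antiviral effectors, 6 genes of the ubiquitin-like and ADP-ribose pathways, 3 other induced genes and 8 immunity-related and guanylate-binding GTPases.

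Interferons are secreted proteins that infected or damaged cells release and that act on neighboring cells through surface receptors. Type I and type III interferons lead through Jak kinases to a complex that holds STAT2 and IRF9 and binds a short promoter element in which GAAA is repeated, while interferon gamma acts on promoters that hold the palindrome TTCNNNGAA. The genes that follow sense viral RNA, block translation, degrade RNA, tag proteins with ISG15 or attack the vacuoles of intracellular pathogens. In the lung, epithelial cells, macrophages and plasmacytoid dendritic cells are known sources of interferon, and nearly every cell type can respond to it.

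All samples were lung RNA of male C57BL/6 mice, labeled as 10 weeks old, and the age at which each lung was taken is not given. The control group consisted of 4 arrays and the irradiated group of 5 arrays labeled as irradiated left lung, after a single radiation dose to that lung under zoletil and rompun anesthesia. Dose, region of the lung and time after irradiation are not in the labels of any array, so the irradiated arrays can differ from each other in these and in how much of the dose the sampled tissue received, and the study pooled RNA of replicate experiments before labeling. The p-values below therefore measure only the spread between these arrays, and the small number of arrays limits their precision.

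The scanner software called 72.8% to 89.1% of an array's spots well above background. The defining lung markers Sftpc and Scgb1a1, which encode a surfactant protein and the club cell secretory protein, were present on all arrays, with log2 intensities from 19.36 to 19.43 and from 19.08 to 19.19. Arrays stood apart by muscle markers: the 6 cardiac muscle markers had a median of −5.53 relative to the control mean on irradiated array 1, and the 6 skeletal muscle markers had a median of 4.75 on control array 3 (both log2). By the positions of their spots, control arrays 1, 2, 3 and 4 lay next to irradiated arrays 2, 3, 4 and 5, respectively, on a scan, which the labels do not state. Irradiated array 1 had no such neighbor. These 4 pairs of neighbors are called scan pairs below. Left out in turn, control arrays 1 to 4 moved the differences of 7, 9, 13 and 12 of the 39 genes described below by over 1.5 times, and irradiated arrays 1 to 5 those of 9, 15, 8, 3 and 5. For 21 of the 39 genes at least 1 array did so, and their ranges with one array left out are given below.

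All 39 interferon-stimulated genes had a higher mean on the irradiated arrays than on the control arrays, with a median log2 difference of 0.28, against 0.0085 over all genes, except that Gbp2 was lower with another background correction (normexp) and Gbp2 and Gbp6 were lower in the authors' normalized table, that Irf1 was lower with the mean of its probes, and that 1 to 3 of Gbp2, Gbp6, Ifi47 and Rsad2 were lower when some single arrays were left out. Of all genes, 51.9% had a higher mean on the irradiated arrays. No single gene of the 39 passed the threshold of an adjusted p under 0.05 in limma, where 0.264% of all genes passed as higher and 0.152% as lower. At an unadjusted p under 0.05 in limma, 12 of the 39 (30.8%) were higher and 0 were lower, against 7.37% and 4.99% of all genes. These 12 were Ddx58, Zbp1, Irf7, Ifit1, Ifit2, Ifit3, Oas1a, Oas2, Oasl1, Oasl2, Ifi44 and Isg15, of which 8 were antiviral effectors. On 5 of the 39 genes (12.8%), every irradiated array lay above every control array and on 0 below, against 3.4% and 1.76% of all genes, and these 5 were Ddx58, Ifit1, Ifit3, Oasl1 and Oasl2. The lowest adjusted p in limma was 0.0758 (Oasl1), followed by 0.0818 (Ifit1) and 0.117 (Ifit3). With one array left out, the 12 became 7 (without control array 3) to 16 (without irradiated array 4), with 8 without irradiated array 2 or 3. Without irradiated array 1 the 12 became 13, of which Oas1a passed the threshold. The share of all genes at that unadjusted p is not given with an array left out. The numbers with an array left out therefore cannot be set against it. By role, the number at that unadjusted p with one array left out was 1 to 2 of 4 sensors (2 with all arrays). It was 0 to 2 of 4 transcription factors (1 with all arrays), with 2 without irradiated array 1 or 4, and 6 to 8 of 14 effectors (8). For the 6 genes of the ubiquitin-like and ADP-ribose pathways it was 0 to 2 (1), with 2 without irradiated array 4. For the 3 other induced genes it was 0 to 3 (0), with 3 without irradiated array 4 and 2 without control array 1. The 8 GTPases stayed at 0. Without control array 3 each role was at the lowest number of its range. With the scan pairs as a block, which leaves out irradiated array 1, 7 of the 39 genes passed as higher and 0 as lower in limma, against 2.26% and 1.56% of all genes. In bulk tissue, more or fewer cells of a type and more or less RNA per cell cannot be told apart.

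**Figure D1:**
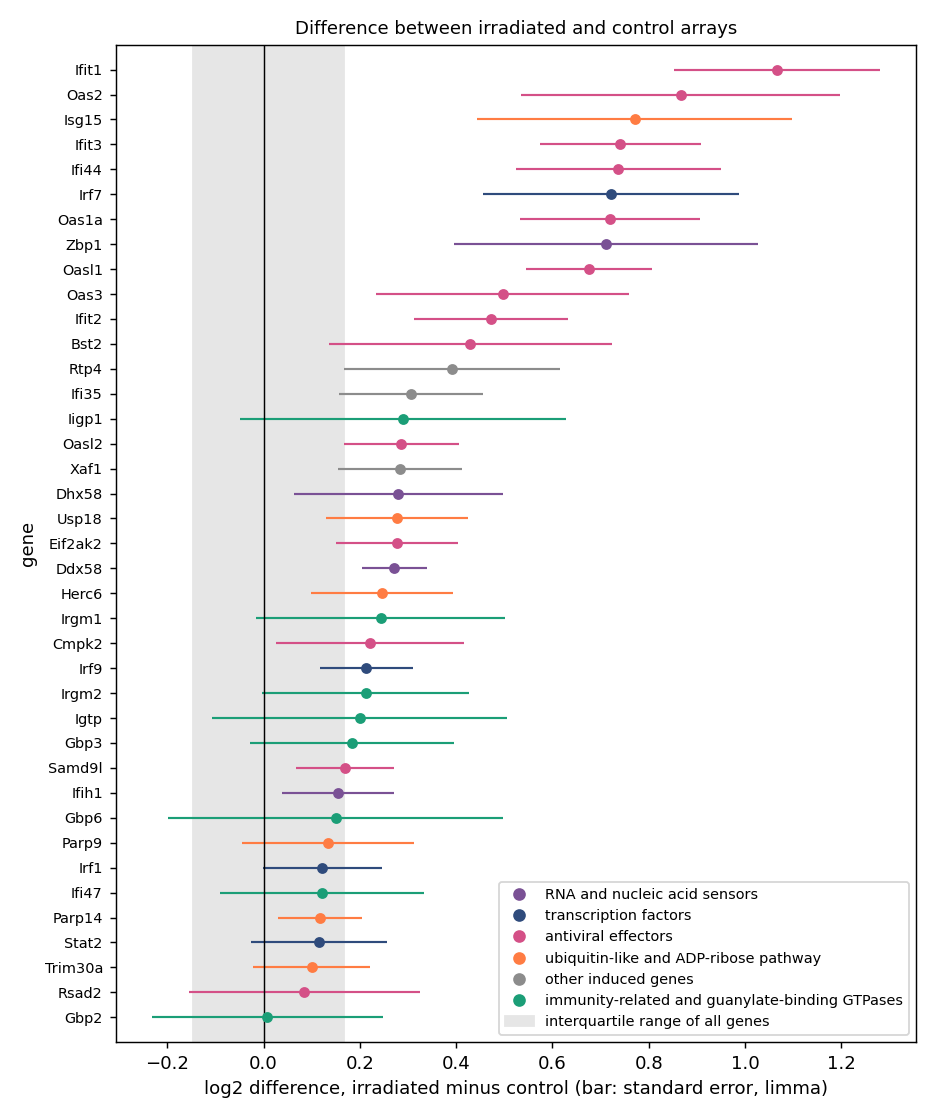
Log2 difference between the irradiated and control means for each of the 39 interferon-stimulated genes (points, with the standard error from limma as bars), colored by role, with genes on the vertical axis. All 39 points lie to the right of 0, from 0.0080 for Gbp2 to 1.07 for Ifit1, and the gray band marks the interquartile range of all genes, from −0.15 to 0.17. In other settings Gbp2, Gbp6, Irf1, Ifi47 or Rsad2 lay below 0.

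Promoter sequences of 5 antiviral effectors, Isg15 and 2 GTPases are shown because interferon acts on such genes through elements of this kind. The windows run over the 170 bases before the transcription start, in RefSeq's GRCm38.p6 assembly of the mouse, and are printed 5′ to 3′ on the strand of the gene. Capitals mark matches, on either strand, to a pair of GAAA with any 2 bases between them, here called the GAAA pair and the core of the element bound by the complex with IRF9, or to TTCNNNGAA, the palindrome of the interferon gamma response, and overlapping matches run together. Ifit1, Ifit3, Isg15 and Oas1a hold the GAAA pair. Oasl1 and Ifi44 were the genes nearest the threshold without an exact match to it. Looser forms of the element, with other spacing or letters, were not searched for. The GTPases Irgm1 and Igtp were added after their values were seen, because their group had a pattern across the arrays that differed from that of the effectors.
Ifit1 (chr19:34640719-34640888, plus strand): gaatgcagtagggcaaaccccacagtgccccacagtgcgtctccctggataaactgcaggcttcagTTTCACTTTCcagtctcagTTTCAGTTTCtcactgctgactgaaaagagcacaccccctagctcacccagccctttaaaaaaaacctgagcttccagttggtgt
Ifit3 (chr19:34583359-34583528, plus strand): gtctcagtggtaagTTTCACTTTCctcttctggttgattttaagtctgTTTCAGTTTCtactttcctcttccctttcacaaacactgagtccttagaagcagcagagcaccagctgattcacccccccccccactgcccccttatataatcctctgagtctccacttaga
Isg15 (chr4:156200819-156200988, minus strand): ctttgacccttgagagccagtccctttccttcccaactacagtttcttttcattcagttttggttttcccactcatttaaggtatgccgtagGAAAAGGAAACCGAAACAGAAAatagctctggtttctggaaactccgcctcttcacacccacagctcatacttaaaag
Oas1a (chr5:120907526-120907695, minus strand): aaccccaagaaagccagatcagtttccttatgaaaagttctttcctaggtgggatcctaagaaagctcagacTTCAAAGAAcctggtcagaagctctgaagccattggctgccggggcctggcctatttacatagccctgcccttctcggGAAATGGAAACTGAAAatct
Oasl1 (chr5:114923070-114923239, plus strand): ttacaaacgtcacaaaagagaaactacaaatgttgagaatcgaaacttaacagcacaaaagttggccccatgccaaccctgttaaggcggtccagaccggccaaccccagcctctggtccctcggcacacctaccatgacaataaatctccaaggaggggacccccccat
Ifi44 (chr3:151749911-151750080, minus strand): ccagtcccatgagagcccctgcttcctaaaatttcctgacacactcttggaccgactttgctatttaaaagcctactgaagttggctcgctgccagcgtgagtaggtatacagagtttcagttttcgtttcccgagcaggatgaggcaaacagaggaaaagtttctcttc
Irgm1 (chr11:48871421-48871590, minus strand): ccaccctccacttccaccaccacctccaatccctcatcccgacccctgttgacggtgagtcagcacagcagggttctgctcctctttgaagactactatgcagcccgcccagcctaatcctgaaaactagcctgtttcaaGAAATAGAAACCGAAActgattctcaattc
Igtp (chr11:58199386-58199555, plus strand): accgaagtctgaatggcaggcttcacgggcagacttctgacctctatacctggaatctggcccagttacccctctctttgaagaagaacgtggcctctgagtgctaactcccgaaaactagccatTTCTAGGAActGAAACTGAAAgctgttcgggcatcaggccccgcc

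RefSeq windows from 250 bases before to 50 bases after the start were found for 30 of the 39 genes. The GAAA pair matched in 17 of these 30 genes, against 3.99% of all 27025 genes with a window, and TTCNNNGAA matched in 8 of the 30, against 9.55%. Counted by window, of which some genes have several, the shares of all 32851 windows were 3.44% and 8.3%, and 18 and 8 of the 35 windows of these genes matched. Matches to both motifs overlapped in 24 of all windows, 1 of which belongs to a gene described here. By role, the GAAA pair matched in 7 of 13 antiviral effectors with a window, 5 of 6 GTPases, 2 of 2 sensors, 2 of 3 genes of the ubiquitin-like and ADP-ribose pathways, 1 of 4 transcription factors and 0 of 2 other induced genes. A match describes the letters in the window and is not a measured binding site. It was found in both the effectors and the GTPases, the groups that are set side by side by array below.

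The antiviral effectors held the largest differences. Their 14 differences ran from 0.08 (Rsad2) to 1.07 (Ifit1) with a median of 0.48. At an unadjusted p under 0.05 in limma, 8 of the 14 were higher, against 7.37% of all genes. Ifit1 and its relatives encode proteins that bind viral RNA ends and block their translation. The log2 intensity of Ifit1 was 10.45, 10.45, 10.19 and 9.91 on control arrays 1 to 4, and 11.29, 11.77, 11.61, 11.24 and 10.68 on irradiated arrays 1 to 5. All irradiated arrays were above all control arrays, with array 5 the lowest of them. The means were 10.25 ± 0.26 (SD, n = 4) and 11.32 ± 0.42 (SD, n = 5), a difference of 1.07 ± 0.21 (SE) or 2.09-fold (limma adjusted p = 0.0818). Ifit3 was at 12.78, 12.62, 12.83 and 12.39 on the control arrays and at 13.60, 13.69, 13.59, 13.13 and 12.97 on the irradiated arrays. Here too the groups did not overlap, and irradiated arrays 4 and 5 were nearest the controls. The difference of Ifit3 was 0.74 ± 0.17 (SE; limma adjusted p = 0.117), and that of Ifit2 was 0.47 ± 0.16 (SE; limma adjusted p = 0.312). Ifit1 passed with the scan pairs as a block (limma adjusted p = 0.0259), and Ifit1, Ifit2 and Ifit3 passed with the pairs as a random block (limma adjusted p = 0.00212, 0.0266 and 0.00869).

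The oligoadenylate synthetases make the second messenger that activates the RNA-degrading enzyme RNase L, and Oasl1 and Oasl2 encode related proteins. Oasl1 was at 10.95, 10.88, 10.48 and 10.83 on the control arrays and at 11.50, 11.71, 11.46, 11.18 and 11.46 on the irradiated arrays. The groups did not overlap, and the difference was 0.68 ± 0.13 (SE) or 1.60-fold (limma adjusted p = 0.0758). Oasl2 was at 12.59, 12.53, 12.43 and 12.56 on the control arrays and at 12.60, 13.19, 12.87, 12.76 and 12.65 on the irradiated arrays. These groups were separated only narrowly, by irradiated array 1 and control array 1, with a difference of 0.29 ± 0.12 (SE; limma adjusted p = 0.451). Oas1a was at 12.81, 13.01, 12.45 and 12.60 on the control arrays and at 12.85, 13.78, 13.61, 13.56 and 13.38 on the irradiated arrays. Irradiated arrays 2 to 5 were above all controls and irradiated array 1 lay among them. The difference of Oas1a was 0.72 ± 0.19 (SE; limma adjusted p = 0.174), and it was 0.87 without irradiated array 1, which passed the threshold (limma adjusted p = 0.0267, with a range of 0.00671 to 0.406 over the settings tried). Oas2 had the same arrangement, at 11.64, 12.40, 11.24 and 11.43 on the control arrays against 11.44, 12.73, 13.01, 12.79 and 12.74 on the irradiated arrays. Its difference was 0.87 ± 0.33 (SE; limma adjusted p = 0.39). Oas1a, Oas2 and Oasl1 passed with the scan pairs as a block (limma adjusted p = 0.0300, 0.0400 and 0.0258) and as a random block (0.00671, 0.0233 and 0.00194). Oas3 ran from 6.60 on control array 3 to 8.13 on irradiated array 2, with a difference of 0.50 ± 0.26 (SE).

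Among the remaining effectors, Ifi44, an interferon-induced protein that restricts viruses, was at 9.93, 10.34, 9.81 and 9.58 on the control arrays and at 10.62, 10.88, 11.02, 10.71 and 10.03 on the irradiated arrays. Irradiated array 5 lay among the controls and the other 4 above them, with a difference of 0.74 ± 0.21 (SE; limma adjusted p = 0.23), which passed with the scan pairs as a block (limma adjusted p = 0.0402) and as a random block (0.00953). Bst2 (tetherin), which holds budding virions at the cell surface, differed by 0.43 ± 0.29 (SE), and Eif2ak2, the kinase PKR that shuts down translation, by 0.28 ± 0.13 (SE). Cmpk2 differed by 0.22 ± 0.20 (SE) and Samd9l by 0.17 ± 0.10 (SE). Rsad2, whose product viperin makes a chain-terminating nucleotide, had the smallest difference of the group, 0.08 ± 0.24 (SE). Control array 3 was its highest array at 11.17, against 10.11 to 10.34 on the other control arrays, and its irradiated arrays lay between 10.12 and 10.89. Its difference ran from −0.03 (without control array 2) to 0.32 (without control array 3) with one array left out. The same ranges were 0.21 to 0.63 for Bst2, 0.08 to 0.35 for Cmpk2 and 0.11 to 0.25 for Samd9l, each lowest without control array 3.

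**Figure D2:**
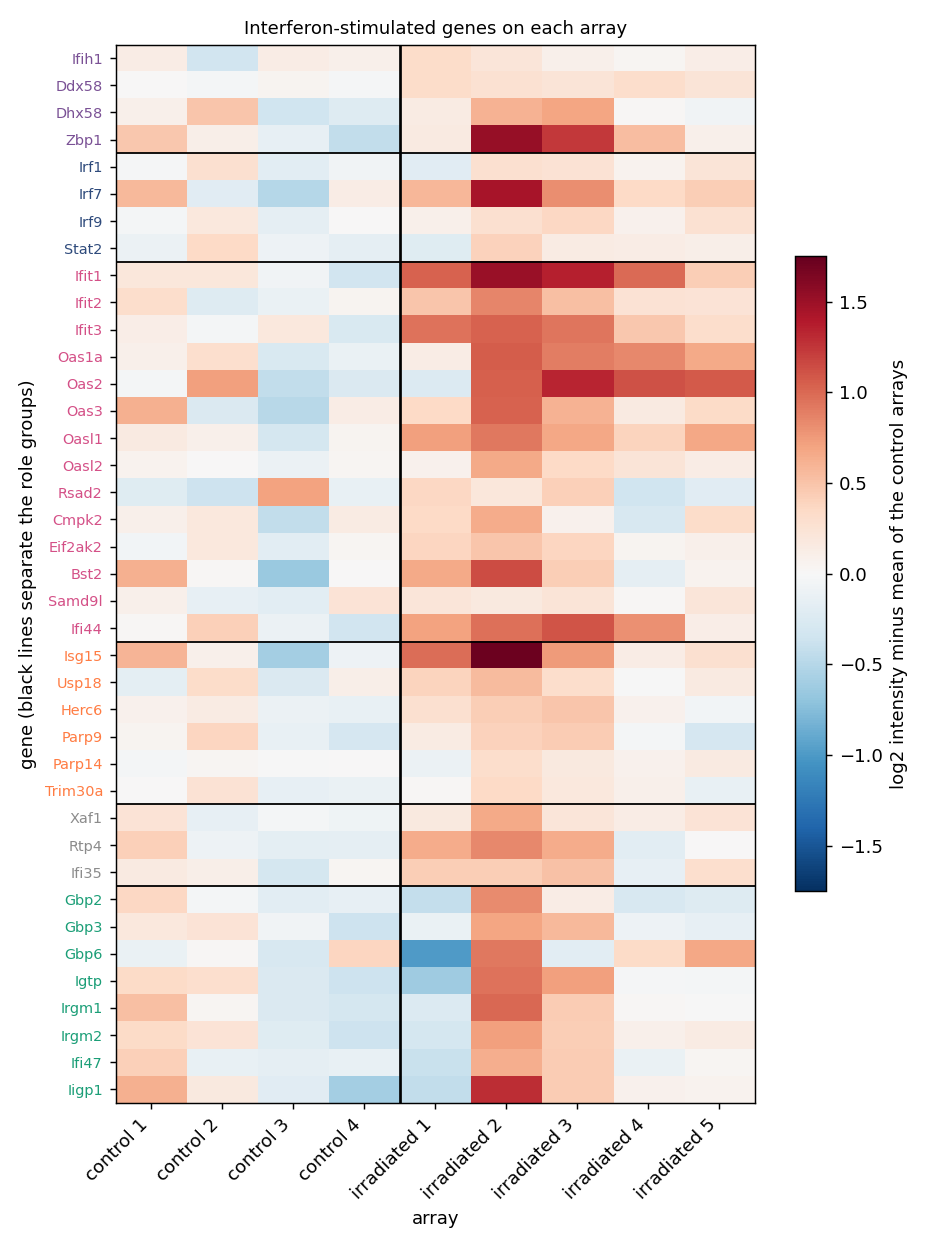
Log2 intensity of the 39 interferon-stimulated genes on each of the 9 arrays minus the mean of the 4 control arrays (color scale, red above and blue below), with genes in rows by role and arrays in columns. Irradiated array 2 is above the control mean on all 39 genes, and irradiated array 1 is above it for 13 of the 14 antiviral effectors and below it for all 8 GTPases.

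The 4 sensors had a median difference of 0.28. At an unadjusted p under 0.05 in limma, 2 of them, Ddx58 and Zbp1, were higher, against 7.37% of all genes. Ddx58 encodes RIG-I, which recognizes RNA with a triphosphate end. It was at 12.21, 12.18, 12.25 and 12.19 on the control arrays and at 12.53, 12.47, 12.43, 12.52 and 12.43 on the irradiated arrays. The groups did not overlap and both were narrow, with SDs of 0.03 and 0.05. The difference was small, 0.27 ± 0.07 (SE) or 1.21-fold (limma adjusted p = 0.154), and passed with a random block for the scan pairs (limma adjusted p = 0.00780). Zbp1, a sensor of left-handed nucleic acids, had the largest difference of the sensors, with 10.80, 10.43, 10.19 and 9.91 on the control arrays against 10.50, 11.86, 11.57, 10.87 and 10.42 on the irradiated arrays. Irradiated arrays 1 and 5 lay among the controls, and the difference was 0.71 ± 0.32 (SE; limma adjusted p = 0.496). Zbp1 passed with the scan pairs as a block, which leaves out irradiated array 1 (limma adjusted p = 0.0443), and as a random block (0.0332). The difference was 0.15 ± 0.12 (SE) for Ifih1, which encodes the RNA sensor MDA5, and 0.28 ± 0.22 (SE) for its regulator Dhx58, neither past an unadjusted p of 0.05. With one array left out, Ifih1 ran from 0.04 (without control array 2) to 0.20 and Dhx58 from 0.16 (without control array 3) to 0.44 (without control array 2). A dimmer probe of Ifih1, well above background on all 9 arrays, had a difference of 0.28 ± 0.21 (SE).

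Of the 4 transcription factors, Irf7, which amplifies type I interferon genes, had the largest difference. Irf7 was also the one of the 4 that was higher at an unadjusted p under 0.05 in limma, against 7.37% of all genes. It was at 9.53, 8.77, 8.47 and 9.10 on the control arrays and at 9.54, 10.41, 9.78, 9.31 and 9.40 on the irradiated arrays. Control array 1 was as high as the middle of the irradiated arrays, so the groups overlapped. The difference was 0.72 ± 0.27 (SE; limma adjusted p = 0.367). Irf7 and Irf9 passed with a random block for the scan pairs (limma adjusted p = 0.0231 and 0.0414). Irf9, the DNA-binding subunit of the type I interferon complex, differed by 0.21 ± 0.10 (SE), Irf1 by 0.12 ± 0.12 (SE) and Stat2 by 0.11 ± 0.14 (SE). With one array left out, Irf1 ran from 0.06 (without control array 3) to 0.21 and Stat2 from 0.04 (without irradiated array 2) to 0.23, both highest without control array 2. A dimmer probe of Irf1, well above background on 6 arrays, had a difference of −0.60 ± 0.41 (SE). Of the 13 genes with more than 1 probe, Irf1 was the one gene whose probes differed in sign.

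In the ubiquitin-like and ADP-ribose pathways, the 6 differences ran from 0.10 (Trim30a) to 0.77 (Isg15), with a median of 0.19. Isg15 encodes the ubiquitin-like protein that is attached to other proteins in response to interferon. It was at 13.45, 12.94, 12.26 and 12.77 on the control arrays and at 13.83, 14.57, 13.60, 12.99 and 13.13 on the irradiated arrays. Irradiated arrays 1, 2 and 3 were above all controls, while arrays 4 and 5 lay below control array 1. The difference was 0.77 ± 0.33 (SE) or 1.71-fold (limma adjusted p = 0.464), and passed with a random block for the scan pairs (limma adjusted p = 0.0425). Herc6, the mouse ligase that attaches ISG15, differed by 0.25 ± 0.15 (SE), and Usp18, the protease that removes it, by 0.28 ± 0.15 (SE). A dimmer probe of Herc6, also well above background on all 9 arrays, had a difference of 0.60 ± 0.19 (SE) and was higher at an unadjusted p of 0.00979 in limma. The ADP-ribosyltransferase genes Parp9 and Parp14 differed by 0.13 ± 0.18 (SE) and 0.12 ± 0.09 (SE). With one array left out, Parp9 ran from 0.04 (without control array 4) to 0.26 (without control array 2), Parp14 from 0.07 (without irradiated array 2) to 0.17 (without irradiated array 1) and Trim30a from 0.04 (without irradiated array 2) to 0.18 (without control array 2).

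The 3 other induced genes differed by 0.28 to 0.39, and none passed an unadjusted p of 0.05. Rtp4, a receptor chaperone that is a common interferon readout, was at 13.48, 12.98, 12.89 and 12.91 on the control arrays and at 13.71, 13.90, 13.71, 12.88 and 13.07 on the irradiated arrays. Irradiated arrays 1, 2 and 3 were above all controls and arrays 4 and 5 were not, with a difference of 0.39 ± 0.22 (SE; limma adjusted p = 0.643). Ifi35 differed by 0.31 ± 0.15 (SE), and by 0.20 (without control array 3) to 0.42 (without irradiated array 4) with one array left out. Xaf1, a promoter of apoptosis, differed by 0.28 ± 0.13 (SE) and passed with a random block for the scan pairs (limma adjusted p = 0.0432). Its range with one array left out was 0.19 (without irradiated array 2) to 0.36 (without control array 1).

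The 8 GTPases overlapped between the groups and spread widely among the irradiated arrays. These proteins are strongly induced by interferon gamma and act on the membranes around intracellular pathogens. Their differences ran from 0.0080 (Gbp2) to 0.29 (Iigp1) with a median of 0.19, and none passed an unadjusted p of 0.05. Iigp1, the largest, was at 12.23, 11.78, 11.40 and 11.00 on the control arrays and at 11.17, 12.89, 12.04, 11.68 and 11.67 on the irradiated arrays. The groups overlapped through irradiated arrays 1, 3, 4 and 5, and the difference was 0.29 ± 0.34 (SE; limma adjusted p = 0.872). Igtp was at 13.77, 13.72, 13.18 and 13.07 on the control arrays and at 12.81, 14.38, 14.15, 13.42 and 13.40 on the irradiated arrays, so that irradiated array 1 was below all controls and arrays 2 and 3 above them. Its difference was 0.20 ± 0.31 (SE). Irgm1, with a difference of 0.24 ± 0.26 (SE), was at 12.99, 12.50, 12.21 and 12.15 against 12.22, 13.46, 12.90, 12.49 and 12.46. Gbp6 had the lowest value relative to the controls, 9.47 on irradiated array 1 against 10.19 to 10.84 on the control arrays, and differed by 0.15 ± 0.35 (SE). The differences were 0.18 ± 0.21 (SE) for Gbp3, 0.21 ± 0.22 (SE) for Irgm2 and 0.12 ± 0.21 (SE) for Ifi47. Dimmer probes of 3 of these genes, well above background on all 9 arrays, had differences of 0.75 ± 0.49 (SE) for Iigp1, 0.38 ± 0.25 (SE) for Irgm1 and 0.28 ± 0.45 (SE) for Gbp6, none past an unadjusted p of 0.05. Left out one at a time, the arrays gave the lowest differences of all 8 GTPases without irradiated array 2, at 0.04 for Iigp1, 0.05 for Irgm1, 0.09 for Irgm2, 0.06 for Gbp3, 0.012 for Igtp, −0.0079 for Ifi47, −0.04 for Gbp6 and −0.20 for Gbp2. They were highest without irradiated array 1 for Gbp6 (0.44), Igtp (0.41) and Irgm2 (0.34), without irradiated array 5 for Gbp3 (0.27), and without control array 1 for Iigp1 (0.50), Irgm1 (0.42), Ifi47 (0.26) and Gbp2 (0.13). Irgm1 passed with the scan pairs as a block (limma adjusted p = 0.0472) but not with a random block for the pairs (limma adjusted p = 0.231).

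Set side by side by array, the effectors and the GTPases differed most on irradiated array 1. There the median of the 14 effectors was 0.37 above the control mean, with 13 of 14 above it, and the median of the 8 GTPases was −0.40, with 0 of 8 above it and 4 of 8 below all controls, against 18.2% of all genes. On irradiated array 2 both groups were high, with medians of 0.95 and 0.88, and all 8 GTPases lay above all controls. Medians on irradiated arrays 3, 4 and 5 were 0.57, 0.24 and 0.28 for the effectors and 0.44, 0.0048 and 0.010 for the GTPases. On the control arrays the medians ran from −0.18 to 0.09 for the effectors and from −0.34 to 0.35 for the GTPases. The GTPase medians on irradiated arrays 4 and 5 thus lay within the range of the control medians. By gene, Gbp2 lay below all controls on both of these arrays, and Gbp6 lay above all controls on array 5. Without irradiated array 1, the median difference was 0.50 for the effectors and 0.35 for the GTPases. Without irradiated array 2, it was 0.37 for the effectors and 0.026 for the GTPases, of which 5 of 8 then remained above 0. The 4 transcription factors were also lowest on irradiated array 1, with medians of −0.05, 0.34, 0.31, 0.10 and 0.24 on irradiated arrays 1 to 5. On irradiated array 1, 2 of these 4, Irf1 and Stat2, lay below all controls, against 18.2% of all genes. Parp14 lay below all controls there too. Whether the groups differ in their response was not tested.

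**Figure D3:**
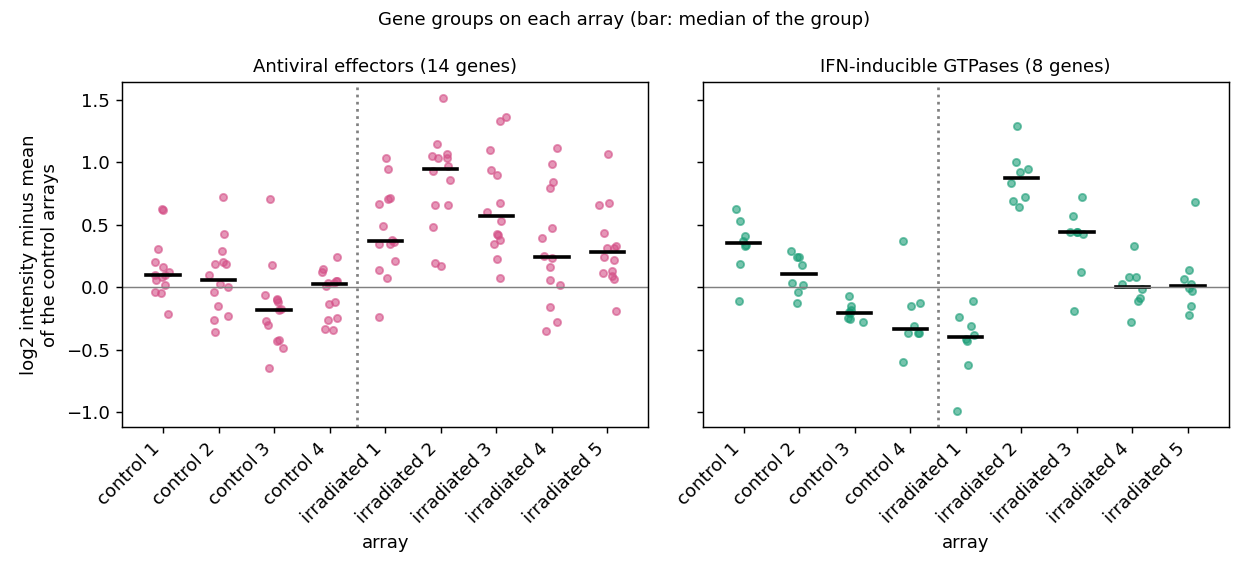
Log2 intensity minus the mean of the control arrays for the 14 antiviral effectors (left) and the 8 interferon-inducible GTPases (right) on each array, with a point for each gene and a bar for the group median. The medians on irradiated array 1 are 0.37 for the effectors and −0.40 for the GTPases, and those on irradiated array 2 are 0.95 and 0.88.

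Markers of immune cells varied across the same arrays. The 7 T cell markers had medians of −0.58, 0.40, 0.36, −0.05 and −0.34 relative to the control mean on irradiated arrays 1 to 5, and the 5 markers of all leukocytes had medians of −0.24, 0.61, 0.30, 0.01 and 0.08. Among the irradiated arrays, arrays 2 and 3 were thus highest and array 1 lowest for both marker lists and for the GTPases. On the control arrays the medians ran from −0.14 to 0.14 for T cells and from −0.52 to 0.31 for all leukocytes. The leukocyte medians on irradiated arrays 1, 3, 4 and 5 therefore lay within the range of the controls, and that on array 2 lay above it. Other immune lists had other orders, with medians on irradiated arrays 1 to 5 of −0.47, −0.38, −0.33, −0.35 and −0.34 for B cells, 0.07, −0.04, 0.25, −0.47 and −0.44 for natural killer cells and 0.33, −0.72, 0.20, −1.14 and −1.23 for neutrophils. The summed linear intensity of the T cell markers ran from 33036 to 42642 on the control arrays and from 26813 to 46574 on the irradiated arrays, and 3 of 7 had a higher mean on the irradiated arrays. The leukocyte sum ran from 93797 to 126602 on the control arrays and from 88073 to 152085 on the irradiated arrays, and 3 of 5 were higher. Cd3e and Ptprc, the first gene of each list, differed by −0.12 ± 0.23 (SE) and −0.01 ± 0.20 (SE). No marker of either list was at background, and the part of these cells in the GTPase values was not tested.

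Macrophages both make and respond to interferon. Of the 7 macrophage markers found, 5 had a higher mean and 4 (57.1%) were higher at an unadjusted p under 0.05 in limma, against 7.37% of all genes, with 0 past the adjusted threshold. Without irradiated array 1, Adgre1 and Itgax passed in limma, at 0.86 and 0.81, against 1.09% of all genes as higher. With the scan pairs as a block 1 (Adgre1) passed, against 2.26%, and with the pairs as a random block 4, against 5.64%. Adgre1, which encodes a surface receptor of mouse macrophages, differed by 0.72 ± 0.17 (SE; limma adjusted p = 0.138) and Mrc1, the mannose receptor, by 0.60 ± 0.11 (SE; limma adjusted p = 0.0652), and for both every irradiated array was above every control array, 2 of the 7 markers against 3.4% of all genes. The alveolar macrophage genes Marco and Siglecf differed the other way, by −0.63 ± 0.49 (SE) and −0.47 ± 0.35 (SE). Relative to the control mean, Marco was at 1.04, −1.72, −0.78, −1.23 and −0.46 on irradiated arrays 1 to 5, and Siglecf at 0.53, −0.69, −0.42, −0.95 and −0.82. Both were above the control mean on irradiated array 1 and below it on the other irradiated arrays, and without array 1 their differences were −1.05 and −0.72. Marco lay above all controls on array 1 and below all controls on arrays 2, 3 and 4. Siglecf lay below all controls on array 4 and within their range on the other irradiated arrays. The median of the list was 0.26, 0.58, 0.59, 0.65 and 0.44 above the control mean on irradiated arrays 1 to 5. The sum of the list ran from 64301 to 81558 on the control arrays and from 77938 to 86621 on the irradiated arrays. The 7 markers of plasmacytoid dendritic cells, a main source of type I interferon, had a median difference of −0.15, with 1 of 7 higher and Siglech at −0.15 ± 0.19 (SE). The Siglech probe read 16.98 to 17.92 across the arrays, against 11.32 to 12.21 for the leukocyte gene Ptprc. How specific this list is to these cells was not tested. The median difference was −0.02 for the 7 T cell markers, −0.16 for the 6 natural killer cell markers, −0.38 for the 5 B cell markers and −0.45 for the 5 neutrophil markers. The medians were 0.04 for lung epithelium, −0.20 for endothelium and 0.16 for fibroblasts. The part of any of these cells in the interferon-stimulated genes was not tested.

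Counted array by array, interferon-stimulated genes at least 2-fold above the control mean numbered 1, 11, 4, 1 and 1 of 39 on irradiated arrays 1 to 5, against 3.64%, 3.7%, 4.13%, 3.18% and 3.59% of all genes. Genes at least 2-fold below numbered 0 of 39 on each of them, against 4.5%, 2.61%, 2.66%, 2.8% and 3.58% of all genes. On control arrays 1 to 4, each set against the mean of the other control arrays, 0 of the 39 genes were at least 2-fold above, against 2.1%, 2.22%, 3.45% and 2.2% of all genes. The 11 on irradiated array 2 were Zbp1, Irf7, Ifit1, Ifit3, Oas1a, Oas2, Oas3, Bst2, Isg15, Irgm1 and Iigp1. On array 3 they were Zbp1, Ifit1, Oas2 and Ifi44, while Ifit1 was the 1 gene on array 1 and Oas2 the 1 gene on arrays 4 and 5. The median over the 39 genes was 0.17, 0.69, 0.44, 0.07 and 0.14 above the control mean on irradiated arrays 1 to 5, against 0.12, 0.10, −0.18 and −0.11 on control arrays 1 to 4. On irradiated array 2, 37 of the 39 genes lay above all controls, the exceptions being Rsad2 and Samd9l. That number was 24 on array 3, 17 on array 1, 12 on array 5 and 10 on array 4. Of all genes, 28%, 20.9%, 25.5%, 19.2% and 20.8% lay above all controls on irradiated arrays 1 to 5.

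Within the scan pairs, the irradiated array was compared with the control array next to it. Irradiated array 2 was higher than control array 1 on 39 of the 39 genes, against 46.2% of all genes, with a median difference of 0.51. Irradiated array 3 was higher than control array 2 on 33 (all genes, 53.7%), with a median of 0.38. Irradiated arrays 4 and 5 were higher than control arrays 3 and 4 on 34 and 35 genes (all genes, 48.2% and 51.1%), with medians of 0.24 and 0.25. In all 4 pairs, 27 of the 39 genes were higher, against 17.9% of all genes, and no gene was lower in more than 2 pairs. The 7 genes that passed with the pairs as a block were Zbp1 (0.85 ± 0.13 SE), Ifit1 (1.07 ± 0.10 SE), Oas1a (0.87 ± 0.09 SE), Oas2 (1.14 ± 0.16 SE), Oasl1 (0.67 ± 0.06 SE), Ifi44 (0.75 ± 0.10 SE) and Irgm1 (0.36 ± 0.06 SE). Their adjusted p in limma was between 0.0258 for Oasl1 and 0.0472 for Irgm1, and over the settings tried it reached 0.393 for Ifit1, 0.406 for Oas1a, 0.829 for Oas2, 0.878 for Ifi44 and 1.00 for the other 3. All 7 were higher in 4 of 4 pairs. Irgm1 was the one GTPase among them, and its adjusted p was 0.853 with all 9 arrays and no block. With the pairs as a random block over all 9 arrays, 13 of the 39 genes passed as higher and 0 as lower in limma, against 5.64% and 3.8% of all genes. These were Ddx58, Zbp1, Irf7, Irf9, Ifit1, Ifit2, Ifit3, Oas1a, Oas2, Oasl1, Ifi44, Isg15 and Xaf1. Without irradiated array 1 and with no block, 1 gene passed, against 1.09% of all genes.

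**Figure D4:**
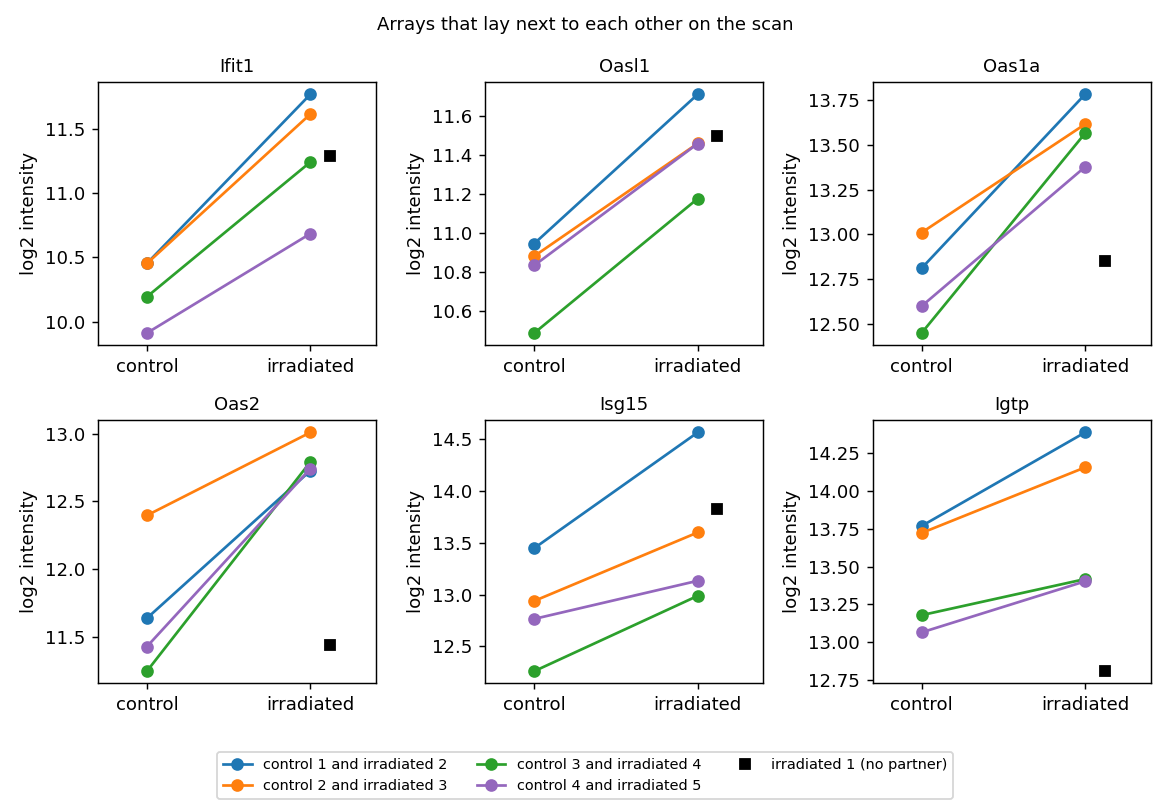
Log2 intensity of 6 interferon-stimulated genes on each array (vertical axes differ by gene and do not start at 0), with lines joining the control and irradiated arrays that lay next to each other on the scan and a square for irradiated array 1. Every line goes up, and irradiated array 1 lies among the irradiated arrays for Ifit1, Oasl1 and Isg15 and within or below the range of the controls for Oas1a, Oas2 and Igtp.

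The other genes of the interferon pathway were read from a list of 56 ligands, receptors, kinases, adaptors and inhibitors, of which 53 were found. Of these, 49 were well above background on all arrays, and their means were higher in 30 and lower in 19, with a median difference of 0.05. The other 4 were ligands. None of the 53 passed the threshold in limma, and 3 (5.66%) were higher and 0 lower at an unadjusted p under 0.05, against 7.37% and 4.99% of all genes. Of the ligands, Ifnb1, the first type I interferon made after infection, was well above background on 1 control and 1 irradiated array, Ifna11 on 5 arrays, and Ifna4 and Ifne on 0. Ifng, the gene of interferon gamma, was at 8.97, 9.11, 6.80 and 8.07 on the control arrays and at 7.90, 9.98, 9.18, 7.89 and 8.22 on the irradiated arrays. Irradiated array 2 was the highest and control array 3 the lowest, and the groups overlapped, with a difference of 0.40 ± 0.56 (SE; limma adjusted p = 0.903). It ran from −0.08 (without control array 3) to 0.69 (without control array 2) with one array left out, and it was 0.06 without irradiated array 2.

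Of the 6 receptor genes found, none passed an unadjusted p of 0.05. Ifnar1 ran from 12.08 to 12.26 on the control arrays and from 12.02 to 12.36 on the irradiated arrays, a difference of 0.04 ± 0.09 (SE). Ifnar2 differed by 0.09 ± 0.09 (SE), Ifngr1 by 0.07 ± 0.13 (SE) and Ifngr2 by 0.27 ± 0.13 (SE). Of the 5 irradiated arrays, 4 lay above all control arrays for Ifngr2 and 3 for Il10rb, which differed by 0.20 ± 0.09 (SE).

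The 3 genes of this list at an unadjusted p under 0.05 were Socs3, which inhibits receptor kinases, Tlr3, which senses double-stranded RNA, and the adaptor Traf3. Socs3 had the largest difference, 1.29 ± 0.45 (SE; limma adjusted p = 0.327), at 13.22, 13.29, 12.93 and 12.52 on the control arrays against 12.76, 13.77, 15.03, 14.67 and 15.13 on the irradiated arrays. Irradiated array 1 lay among the controls, and without it the difference was 1.66 and passed the threshold in limma, 1 of the 53 genes (1.09% of all genes). Tlr3 differed by 0.47 ± 0.16 (SE) and Traf3 by 0.25 ± 0.09 (SE). With the scan pairs as a block, 3 of the 53 genes passed in limma, namely Traf3, Myd88 and Tmem173, which encodes the adaptor STING, against 2.26% of all genes as higher. With the pairs as a random block, 3 of 53 (5.66%), Tlr3, Traf3 and Socs3, passed, against 5.64% of all genes. The shares at an unadjusted p under 0.05 and with the random block were thus near those of all genes.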

How the data were processed

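Lung RNA on Agilent one-color arrays was read with Feature Extraction; the authors deposited intensity values without normalization between arrays, other columns that mark outlier and well-detected spots, and a table of normalized intensity values. The processed signal was used. Spots were numbered by position, control and outlier spots were left out, and probes that exceeded 1.4 times their local background on 4 or more arrays were kept (39302 of 39429). Values were put on the log2 scale, quantile normalized over the 9 arrays and averaged over the spots of a probe. Accessions were named through RefSeq (GRCm38.p6), which gave a symbol for 26049 probes (66.1%), and each gene was read at its brightest probe. No array had a saturated spot.

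Groups were compared with limma (version 3.58.1, R 4.3.3), with an intensity trend, Benjamini-Hochberg adjustment over all probes kept, no covariates and two-sided p-values. The fit was tested on simulated data with independent noise and changes larger than the differences of the genes described here. That test therefore does not cover changes of their size or the likeness within scan pairs. A scan pair was a pair of arrays whose spots were shifted by 3149 to 3150.5 pixels across and 1.79 to 3.79 down, with median backgrounds at most 2 units apart. Deviations from the group means correlated at 0.20 to 0.46 within scan pairs and at −0.17 to 0.06 between arrays of the same number, so the numbers did not pair the samples. Leaving out each array and other background corrections, filters, normalizations, variance models and probe rules were tried. The members and lists were chosen with earlier results of these data known. Values per array are given for genes past the threshold, genes whose groups do not overlap and the largest difference in each role, and, chosen after values were seen, a few others. Cd68, Ly6g, Ifna9, Ifnz and Ifnl2 were not found through the gene table. Some genes of the pathway and marker lists are not reported here.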

Additional observations from a re-analysis of the deposited data

Results flagged for a closer look

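In 7 of the 92 groups of 4 or 5 arrays examined (7.6%), 1 array lay far from the rest by Dixon's test of the gap over the range, which chance gives in about 1 in 20 groups. Among the sensors, Ifih1 was at 11.43 on control array 2 against 11.86 to 11.90 on the other control arrays. Stat2 was at 13.22 on control array 2 against 12.72 to 12.78. Oas2 was at 11.44 on irradiated array 1 against 12.73 to 13.01 on the other irradiated arrays. Cmpk2 was at 10.11 on control array 3 against 10.63 to 10.72. Xaf1 was at 12.71 on irradiated array 2 against 12.17 to 12.27. Rtp4 was at 13.48 on control array 1 against 12.89 to 12.98, and Ifi47 was at 13.63 on the same array against 13.06 to 13.09.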

How the results depend on the processing

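The number of interferon-stimulated genes past the threshold was 7 with scan pairs as a fixed block, 13 with a random block and 1 without irradiated array 1. In every other setting tried it was 0, so that leaving out one array gave 0 to 1. Of all genes, 0.264% passed as higher in the main setting. That share was 2.26% with the fixed block, 5.64% with the random block and 1.09% without irradiated array 1. For the other pathway genes the number past the threshold was 0 except 3 with the scan pair block, 3 with the random block and 0 to 1 with one array left out. Genes higher at an unadjusted p under 0.05 numbered 12 (7.37% of all genes), against 7 in the authors' normalized table (2.8%), 28 with the scan pair block (13.2%) and 25 with the random block (14.7%). They numbered 7 to 16 with one array left out, for which the share of all genes is not given. The median difference of 0.28 stayed between 0.20 and 0.32 with one array left out, and 36 to 39 of the 39 genes stayed above 0. With the replicate number as a block, 0 genes passed and 13 were higher at an unadjusted p under 0.05 (share of all genes not given). The median was 0.31 with this block, and 1 probe of 39302 passed in all. The numbers did not pair the samples. Differences near 0 changed sign: Irf1 with the mean of its probes (−0.24), Gbp2 with normexp (−0.040) and in the authors' table (−0.045) and Gbp6 in the authors' table (−0.013). With one array left out, the ranges that crossed 0 were −0.20 to 0.13 for Gbp2, −0.043 to 0.44 for Gbp6, −0.0079 to 0.26 for Ifi47 and −0.034 to 0.32 for Rsad2. The causes were not tested. All 39 genes were well above background on all arrays.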
